A study of Mus musculus with 12 samples.

Results

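The genes described here were higher in CT26 cells given CX3CL1 and were not raised by IFN-γ. They are 25 of the 11878 genes whose mean level reached 0.2 TPM over 12 RNA sequencing libraries, TPM being a transcript level per length on a scale with a fixed total per library. Values are compared as log2(TPM + 1), a scale on which changes of weakly expressed genes look smaller than they are in TPM. The genes were selected on 3 measured conditions: a group mean at least 0.4 above No treatment in the CX3CL1 libraries, a group mean no more than 0.15 above No treatment in the IFN-γ libraries, and all 3 CX3CL1 libraries above all 3 untreated ones. Symbols starting with CXCL, CCL, MMP, NFKB, TRIM, SLC, COL, LAM, CEBP or MAP3K8 were left out. CT26 is an established mouse colon carcinoma line, and all 4 groups are cultures of this 1 line. The groups were No treatment, recombinant CX3CL1 at 2 µg/ml, IFN-γ at 100 ng/ml, and CX3CL1+IFN-γ at the same doses, each for 8 hours. Each group had 3 libraries that the labels call biological replicates, and what separated them is not stated, so p-values measure the spread between these libraries.

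CX3CL1 (fractalkine) is a chemokine made as a transmembrane protein, from which proteases release a soluble domain, and its receptor CX3CR1 couples to G proteins. IFN-γ is a T cell and NK cell cytokine that raises guanylate-binding proteins, antigen processing genes and many chemokines. NF-kB is a family of dimeric transcription factors, of which c-Rel (REL) is a subunit, that responds to inflammatory stimuli. The comparison of CX3CL1+IFN-γ with IFN-γ repeats the addition of CX3CL1 on cells that already received IFN-γ. Its CX3CL1+IFN-γ libraries were not used in the measured conditions, but they entered the mean over 12 libraries behind the 0.2 TPM filter. The members were also chosen with earlier results of these data known, so this comparison is not an independent test of them.

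The labels were checked in the data before the genes were described. Of 24 tested genes of a list for IFN-γ treatment, 23 were called higher with IFN-γ than without treatment, at a median log2 difference of 3.28. Of the line's 7 listed markers, VIM was at 1680 to 4830 TPM and KRT18 at 18.4 to 53.6 TPM. EPCAM was listed at 0 in all 12 libraries, KRT8, KRT19 and CDH1 stayed at or below 0.364 TPM, and KRT7 at or below 1.21 TPM. The 9 leukocyte markers summed to 0.567 to 2.29 TPM in the CX3CL1 libraries, 0.963 to 1.80 in the untreated ones and 0.451 to 0.764 in the 6 libraries with IFN-γ. CD3E was listed at 0 throughout, PTPRC stayed at or below 0.0441 TPM, and CX3CR1 itself at or below 0.154 TPM. CX3CR1 is also the receptor of the added ligand. The study reported high CX3CR1 on CT26 cells by flow cytometry, a protein measure unlike this RNA level. The difference between these measures was not tested. LYZ2 reached 1.86 TPM and CD79A 0.485 TPM. The 4 listed fibroblast markers summed to 3.07 to 5.53 TPM in the untreated libraries and 2.84 to 4.81 with CX3CL1. Their sums were 4.59 to 10.4 TPM with IFN-γ and 6.61 to 11.5 with both. PDGFRA, 1 of the 4, was at 2.60 to 9.48 TPM. CX3CL1 replicate 2 stood apart from the other CX3CL1 libraries, with median absolute log2 differences of 0.266 and 0.262 from them, against 0.141 between those.

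Of the genes tested, 393 met the CX3CL1 conditions, and 365 of these lay above the IFN-γ ceiling. Their IFN-γ minus No treatment difference had a median of 1.07 over the 393 genes. Of the 28 genes at or under the ceiling, 3 had an excluded family name, which left the 25. A further 12 genes passed both thresholds on their means but had overlapping CX3CL1 and untreated libraries.

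**Figure D1:**
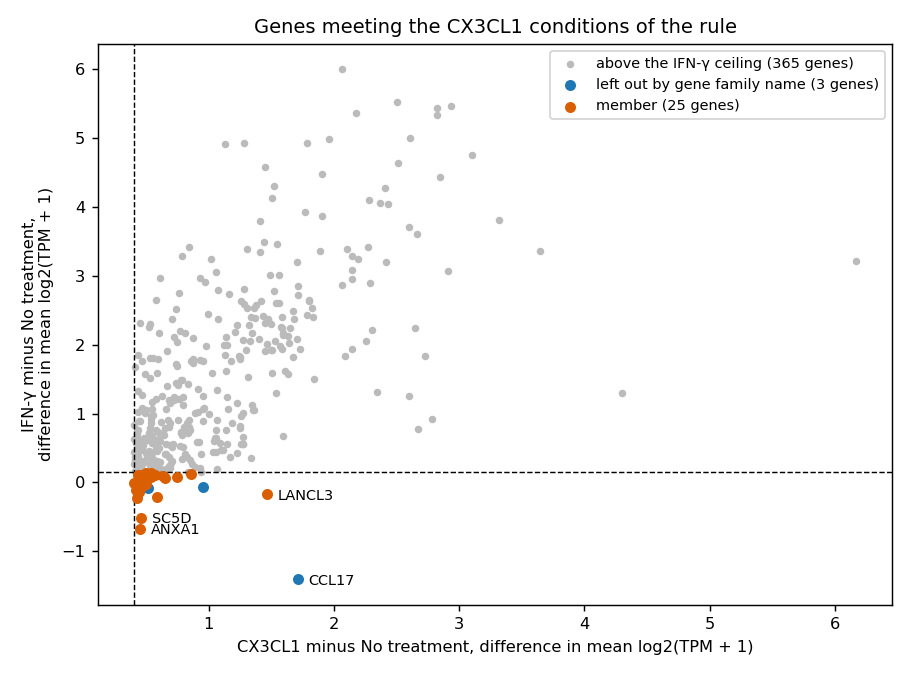
Each point is 1 of the 393 genes that met the CX3CL1 conditions, with the CX3CL1 minus No treatment difference in mean log2(TPM + 1) on the x axis and the IFN-γ minus No treatment difference on the y axis, and dashed lines at the 2 thresholds. The 25 members (orange) lie in the lower left corner, 365 genes (grey) lie above the IFN-γ ceiling, and 3 genes (blue) were left out by name.

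Because the rule used these values, they are given as a description. The CX3CL1 minus No treatment difference ran from 0.40 for ZC3H12C to 1.47 for LANCL3, with a median of 0.48, and on the TPM scale 17 of the 25 genes were under 1.5-fold. In the limma fit over all genes tested, 5 of the 25 were called higher with CX3CL1 (LANCL3, DPY19L1, ODC1, DHRS1 and ETS1), beside 1.78% of the genes tested. The IFN-γ minus No treatment difference had a median of 0.06 and was below 0 in 12 genes, the lowest being ANXA1 at -0.67, SC5D at -0.51, CPD at -0.23, ODAPH at -0.21 and LANCL3 at -0.17.

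Near the CX3CL1 threshold, the members just inside were ZC3H12C at 0.40, PTGS2OS at 0.42 and TM4SF1 at 0.42, and just outside were LECT2 at 0.38, MAP4K4 at 0.38 and a RIKEN transcript at 0.36. At the IFN-γ ceiling, KANSL1L at 0.14, REL at 0.13 and DPY19L1 at 0.12 were inside, and LRIG1 at 0.16 and GM6634 at 0.17 were among the 3 nearest outside. Among the CX3CL1 libraries, the choice leaned most on replicate 2, which held the highest CX3CL1 value for 16 of the 25 genes. Without that library, 15 of the 25 kept a difference of at least 0.4. The 10 others (KANSL1L, EVI2A, ANKRD28, IPO5, ZSWIM6, SC5D, LXN, CPD, PTGS2OS and ZC3H12C) were all under 0.4, the lowest at 0.30. The choice leaned on the untreated libraries too. Without No treatment replicate 1, 2 or 3, the rule found 19, 17 and 16 of the 25 again. Without CX3CL1 replicate 1 or 3 it found 23 and 24 of them.

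**Figure D2:**
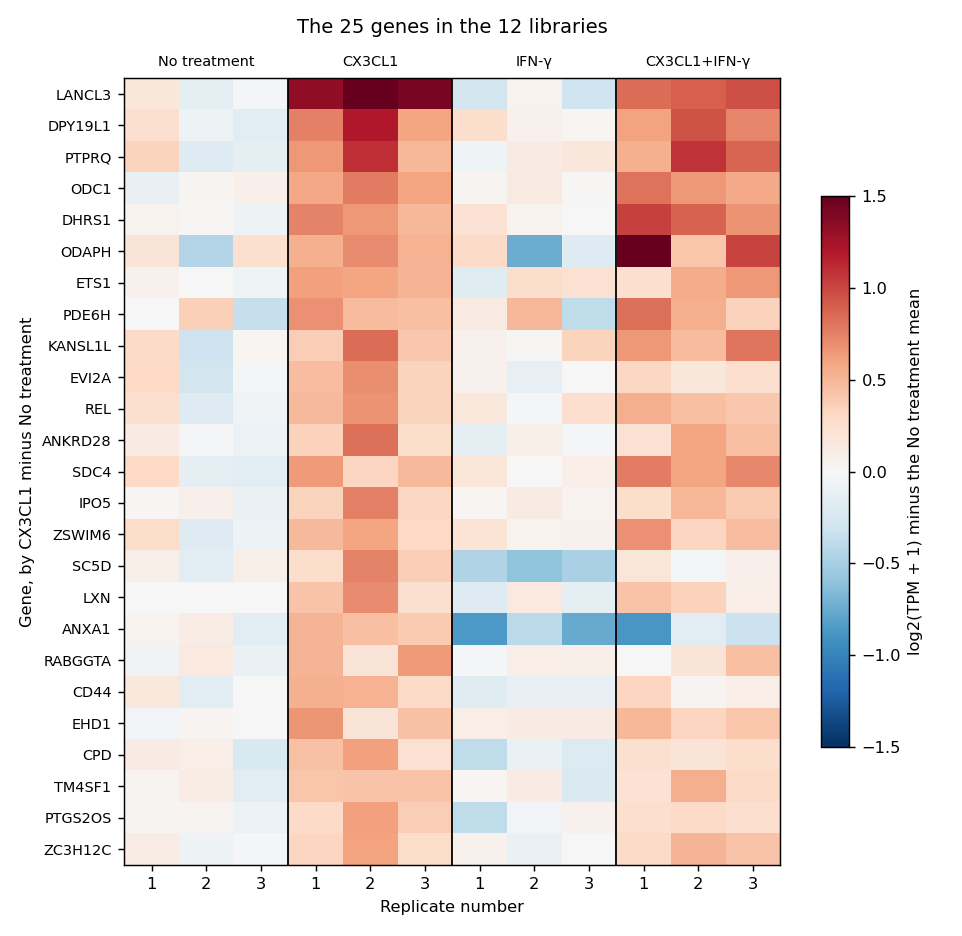
The 25 genes (one line each, ordered by CX3CL1 minus No treatment) across the 12 libraries by group and replicate number, coloured by log2(TPM + 1) minus that gene's No treatment mean, with differences beyond the scale at its end colour. The CX3CL1 and CX3CL1+IFN-γ libraries are red for most genes, and ANXA1 is blue in all 6 libraries with IFN-γ.

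The members covered a wide range of levels. Their median untreated level was 31.4 TPM, against 22.0 TPM over all genes tested. ODC1, ANXA1 and CD44 were among 9 members at 100 TPM or more without treatment, while 10 members were under 10 TPM, PTPRQ at 0.709 being the lowest. The median SD within groups on the log2 scale was 0.16 for the members and 0.17 for all genes tested.

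With both treatments, all 25 genes had a higher mean log2(TPM + 1) than with IFN-γ alone. The differences ran from 0.16 for RABGGTA to 1.20 for ODAPH, with a median of 0.42, where the median over all genes tested was 0.00 and 49.2% were above 0. On the TPM scale the median ratio of group means was 1.38, from 1.14 to 2.68. LANCL3, DHRS1 and ODC1 passed the test, 3 of the 25 or 12%, against 0.345% of all genes tested. Among the 8227 genes tested at or under the same IFN-γ ceiling, 0.0851% were called higher. With the replicate number as a block, ODAPH and SDC4 joined them, 5 of 25 beside 0.749% of all genes. The IFN-γ libraries were held to the ceiling by the rule, which bears on this comparison too, so the counts describe the genes and were not tested as a set.

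In 20 of the 25 genes, all 3 CX3CL1+IFN-γ libraries lay above all 3 IFN-γ libraries, against 8.54% of all genes tested and 9.15% of the genes at or under the ceiling. The exceptions were ETS1, PDE6H, LXN, ANXA1 and RABGGTA. At an unadjusted limma p under 0.05, 22 of the 25 were higher, beside 2.64% of all genes. Between libraries of the same replicate number, 24, 25 and 25 of the 25 genes were higher with CX3CL1 in replicates 1, 2 and 3, the exception being ANXA1 in replicate 1. The 326 genes that met the CX3CL1 conditions above the ceiling, with the same families left out, had a median difference of 0.31. Of them, 91.7% had a difference above 0 and 21 (6.44%) were called higher. The difference between those genes and the 25 was not tested.

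**Figure D3:**
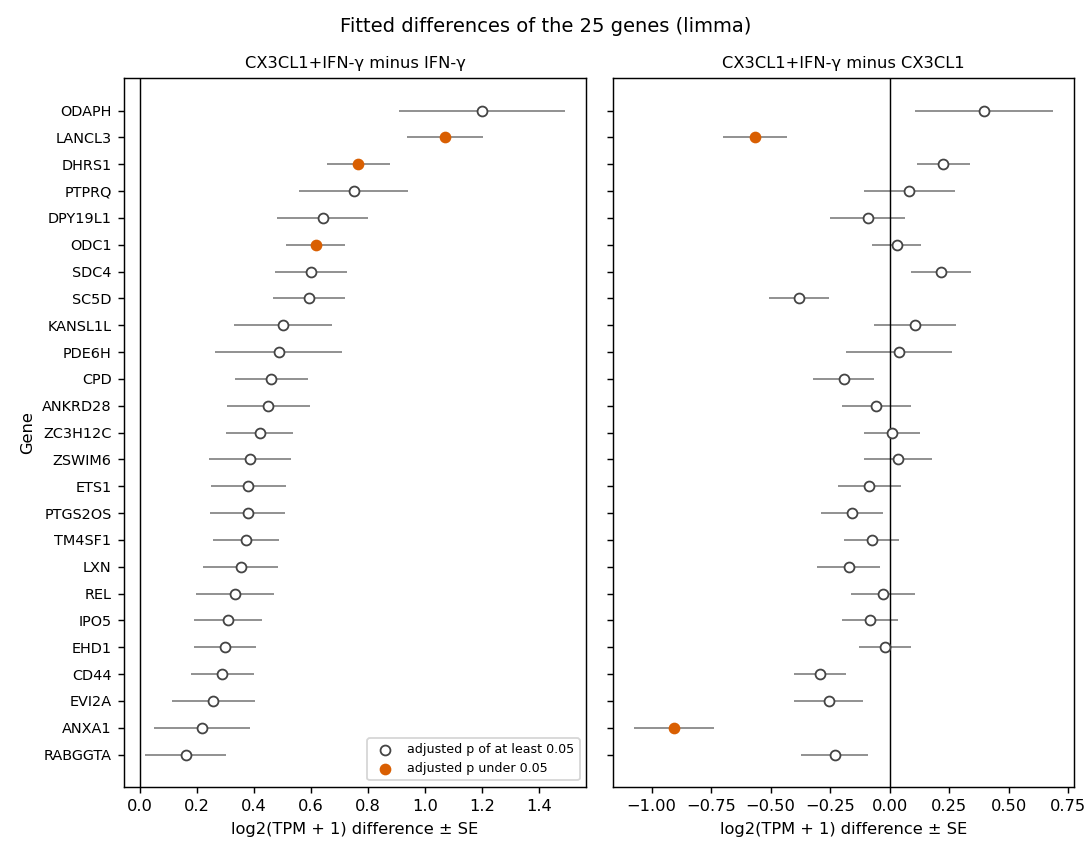
Fitted log2(TPM + 1) differences with their standard errors for the 25 genes, CX3CL1+IFN-γ minus IFN-γ on the left and CX3CL1+IFN-γ minus CX3CL1 on the right, filled where the adjusted p was under 0.05. All points on the left are above 0 and LANCL3, DHRS1 and ODC1 are filled, while on the right ANXA1 and LANCL3 are filled and lie below 0.

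Several members encode enzymes. LANCL3, a LanC-like protein gene on chromosome X (GRCm38, X:9199902-9268085, plus strand), was at 2.85, 2.09 and 2.33 TPM in untreated replicates 1 to 3, 7.54, 9.68 and 8.16 TPM with CX3CL1, 1.82, 2.55 and 1.77 TPM with IFN-γ, and 5.11, 5.33 and 5.65 TPM with both. The CX3CL1+IFN-γ libraries did not overlap the IFN-γ ones, and those with CX3CL1 alone were the highest. For all members, here and below, the separation of CX3CL1 from untreated libraries was set by the rule. Over IFN-γ, LANCL3 rose by 1.07 ± 0.13 on the log2 scale (SE, as for all later log2 differences), with a limma adjusted p of 0.0024, or 2.62-fold in mean TPM. Part of its exons overlap those of Gm14862 on the opposite strand, and reads of such pairs may have been shared, since the use of strand in counting is not stated.

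DHRS1, a short-chain dehydrogenase/reductase gene (14:55739020-55745690, minus strand), was at 30.2, 29.5 and 27.4 TPM without treatment, 49.3, 46.3 and 41.5 with CX3CL1, 34.0, 30.1 and 29.1 with IFN-γ, and 60.0, 54.2 and 46.9 with both. Its CX3CL1+IFN-γ libraries were 1.73-fold above the IFN-γ ones in mean TPM, with no overlap, at a log2 difference of 0.77 ± 0.11 (SE) and a limma adjusted p of 0.0090. ODC1, the ornithine decarboxylase that sets the rate of polyamine synthesis (12:17544794-17551505, plus strand), was the most abundant member, at 784, 872 and 893 TPM without treatment, 1269, 1456 and 1281 with CX3CL1, 870, 935 and 856 with IFN-γ, and 1498, 1333 and 1259 with both. Its CX3CL1+IFN-γ libraries were all above its IFN-γ ones. The rise over IFN-γ was 0.62 ± 0.10 on the log2 scale (limma adjusted p = 0.0243). That call was lost when any 1 of the 6 compared libraries was left out, at adjusted p of up to 0.139 (without IFN-γ replicate 3). The DHRS1 call was lost without CX3CL1+IFN-γ replicate 1, IFN-γ replicate 2 or IFN-γ replicate 3, at adjusted p of 0.051, 0.0672 and 0.0611.

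SC5D, the sterol C5-desaturase of late cholesterol synthesis (9:42251595-42264256, minus strand), was at 159, 133 and 159 TPM without treatment, 180.3, 252 and 193 with CX3CL1, 109, 98.1 and 106 with IFN-γ, and 170.3, 147 and 158 with both. It was lower with IFN-γ alone than in any other group, and with both treatments it was back within the untreated range or just above it. The CX3CL1+IFN-γ minus IFN-γ difference was 0.59 ± 0.13 on the log2 scale with a limma adjusted p of 0.0917. DPY19L1, of the family of C-mannosyltransferases, was at 83.9, 67.4 and 63.7 TPM without treatment, 121, 166 and 108 with CX3CL1, 85.7, 74.6 and 72.5 with IFN-γ, and 108, 138 and 119 with both. All its CX3CL1+IFN-γ libraries were above the IFN-γ ones, at a difference of 0.64 ± 0.16 that did not pass (limma adjusted p = 0.196).

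**Figure D4:**
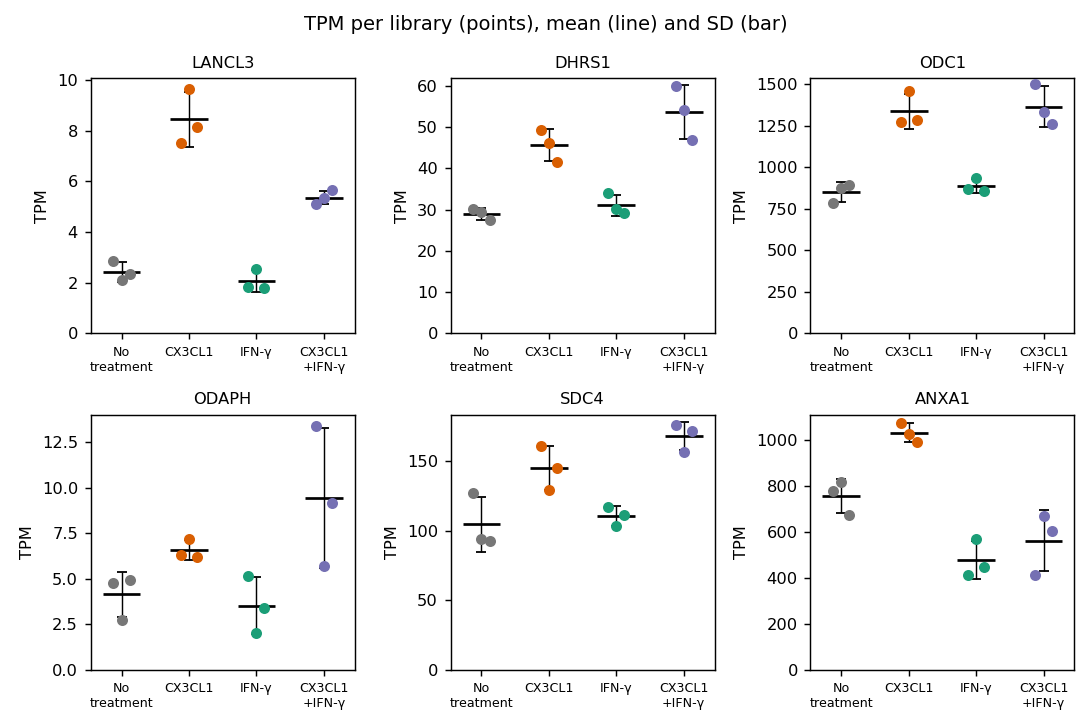
TPM of LANCL3, DHRS1, ODC1, ODAPH, SDC4 and ANXA1 in each library (points, replicates 1 to 3 from left to right), with the group mean (line) and SD (bar), n = 3 per group, each panel starting at 0. LANCL3, DHRS1 and ODC1 are higher in every CX3CL1+IFN-γ library than in any IFN-γ library. The ANXA1 libraries with both treatments (412 to 668 TPM) lie below the untreated ones.

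The transcription and RNA regulators were REL, ETS1, ZC3H12C and KANSL1L. REL, the NF-kB subunit c-Rel (11:23736847-23770970, minus strand), was at 7.73, 5.46 and 6.11 TPM without treatment, 9.35, 10.7 and 8.26 with CX3CL1, 7.24, 6.30 and 7.76 with IFN-γ, and 9.75, 9.11 and 8.73 with both. Each CX3CL1+IFN-γ library was above each IFN-γ library, while the difference of 0.33 on the log2 scale did not pass the test. ETS1, an ETS family factor, was at 56.8, 54.6 and 52.0 TPM without treatment, 84.1, 82.4 and 77.9 with CX3CL1, 47.8, 65.8 and 64.1 with IFN-γ, and 64.8, 80.6 and 86.2 with both. Replicate 1 was the lowest library of both IFN-γ groups, and its CX3CL1+IFN-γ value lay below IFN-γ replicate 2. ZC3H12C, a CCCH zinc finger gene of the Regnase family, had group means of 8.88 ± 0.667 (SD, n = 3), 12.1 ± 1.69, 8.81 ± 0.551 and 12.1 ± 0.996 TPM in the untreated, CX3CL1, IFN-γ and CX3CL1+IFN-γ groups. KANSL1L, a paralogue of the chromatin regulator gene KANSL1, had 8.56 ± 1.93, 12.8 ± 2.60, 9.42 ± 1.27 and 13.8 ± 1.65 TPM in the same order, and its exons overlap those of Rpe and Gm38162 on the opposite strand and Gm37285 on the same strand.

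REL and ZC3H12C are the members in a list of 25 genes for NF-kB subunits and feedback, of which 23 were tested. With CX3CL1 alone, 6 genes of that list were called higher (RELB, BCL3, TRAF1, IKBKE, ZC3H12A and BCL10) and 0 lower by limma (0 at an unadjusted p under 0.05), beside 1.78% of all genes tested called higher, and the list's median log2 difference was 0.40. All 6 genes lay above the IFN-γ ceiling, with IFN-γ minus No treatment differences from 0.28 for BCL10 to 2.37 for TRAF1. None of the 6 has an NFKB symbol. NFKBIZ, NFKBIA, NFKBIE, NFKBID, NFKB1 and NFKB2 also met the CX3CL1 conditions and lay above the ceiling. Their CX3CL1 minus No treatment differences ran from 0.90 for NFKB2 to 2.67 for NFKBIZ, so the 6 calls do not cover the whole family. With IFN-γ alone, the list's median difference was 0.315. For CX3CL1+IFN-γ against IFN-γ, 1 gene of the list, ZC3H12A, was called higher, beside 0.345% of all genes tested, and the median was 0.12.

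Promoter windows from RefSeq on GRCm38.p6, 250 bases before to 50 after the annotated start, were found for 21 of the 25 genes, with 26 windows in all. They were searched on both strands for 6 motifs. The NF-kB consensus, a 10-base motif given here by name, was found in 5 of the 26 windows (19.2%), 1 each for SDC4, REL, KANSL1L, CPD and TM4SF1, while 4.51% of all 32851 windows and 5.25% of those of the genes tested held it. The members' other windows held no match. The matches that lie with their flanks before the start are shown with the motif in capitals and 20 bases on either side, each 5′ to 3′ on the strand of the gene.
SDC4 (chr2:164443241-164443290, minus strand): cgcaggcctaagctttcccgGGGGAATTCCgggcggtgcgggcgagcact
REL (chr11:23771032-23771081, minus strand): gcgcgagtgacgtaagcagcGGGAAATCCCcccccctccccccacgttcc
KANSL1L (chr1:66817666-66817715, minus strand): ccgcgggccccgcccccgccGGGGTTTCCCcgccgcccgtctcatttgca
CPD (chr11:76847101-76847150, minus strand): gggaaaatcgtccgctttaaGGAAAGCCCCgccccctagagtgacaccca

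The first base of the motif lies at -82 in SDC4, -92 in REL, -100 in KANSL1L and -122 in CPD, counted from the RefSeq start. REL holds a second match that overlaps the first and begins at -91. This second REL match and the CPD match read on the opposite strand. The SDC4 stretch lies inside the span of Sdc4 in GENCODE vM21 (2:164424247-164443887), and whether it falls in an exon is not shown here. These are letter matches, and no binding was measured.

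The other motifs were in fewer of the members' windows. AP-1 (TGANTCA) was in 2 windows (7.7%), those of ODAPH and PDE6H, against 7.81% of all windows and 5.24% of those of the genes tested. The E-box CACGTG was in 2 windows, of PTGS2OS and SC5D, against 7.15% and 9.98%. The GAS element TTCNNNGAA, named for its place in IFN-γ-activated promoters, was in 1 window (3.8%), of RABGGTA, against 8.30% and 6.94%. The CRE (TGACGTCA) was in 0 of the 26, against 1.79% and 3.15%, and a sterol element (CACCCCAC) in 0, against 2.87% and 3.01%. The AP-1 letters of ODAPH begin at -59, and a link between them and its level was not tested.
ODAPH (chr5:91987394-91987440, plus strand): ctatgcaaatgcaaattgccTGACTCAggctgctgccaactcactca

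Surface proteins formed another group. SDC4, a heparan sulfate proteoglycan of the syndecan family (2:164424247-164443887, minus strand), was at 127, 94.2 and 92.3 TPM without treatment, 161, 129 and 145 with CX3CL1, 117, 103 and 111 with IFN-γ, and 176, 156 and 172 with both. Its CX3CL1+IFN-γ libraries were all above the IFN-γ ones, at 0.60 ± 0.13 on the log2 scale. The limma adjusted p was 0.0917 without a block and 0.0089 with the replicate number as a block. CD44, the hyaluronan receptor (2:102811141-102901665, minus strand), was at 345, 278 and 310.3 TPM without treatment, 447, 444 and 377 with CX3CL1, 274, 285 and 285 with IFN-γ, and 387, 318 and 331 with both. Its CX3CL1+IFN-γ libraries were all above the IFN-γ ones, and the difference of 0.29 on the log2 scale did not pass.

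TM4SF1, a tetraspan membrane protein, had 178 ± 17.2 TPM (SD, n = 3) without treatment, 238 ± 1.61 with CX3CL1, 175 ± 20.9 with IFN-γ and 227 ± 28.1 with both. PTPRQ, a receptor-type phosphatase known from the hair bundles of the inner ear, was at 1.13, 0.473 and 0.523 TPM without treatment, 1.63, 2.59 and 1.38 with CX3CL1, 0.613, 0.835 and 0.891 with IFN-γ, and 1.43, 2.57 and 2.08 with both. Replicate 2 was the highest of the 3 in both groups with CX3CL1, and the lowest of the untreated. EVI2A, a membrane protein gene inside an intron of Nf1 whose exons overlap Evi2 on the same strand, had 1.76 ± 0.552, 2.88 ± 0.511, 1.70 ± 0.175 and 2.23 ± 0.15 TPM in the untreated, CX3CL1, IFN-γ and CX3CL1+IFN-γ groups. CD44 and SDC4 belong to a list of 31 adhesion and cell surface genes, 21 of them tested, of which 3 (VCAM1, CD47 and CD82) were called higher with CX3CL1 alone, beside 1.78% of all genes tested, at a median of 0.28. These 3 all lay above the IFN-γ ceiling, and the list's median difference with IFN-γ alone was 0.195. For CX3CL1+IFN-γ against IFN-γ, limma called 0 genes of the list, beside 0.345% of all genes. At an unadjusted limma p under 0.05, 6 genes of the list were higher, beside 2.64% of all genes, and the list's median was 0.24.

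The members of trafficking and transport were EHD1, IPO5 and RABGGTA. EHD1, an ATPase of endocytic recycling, was at 134, 142 and 139 TPM without treatment, 220.3, 159 and 188 with CX3CL1, 149, 151 and 150.3 with IFN-γ, and 196, 174 and 186 with both. The IFN-γ libraries lay close together and below all 3 libraries with both. IPO5, a nuclear import receptor, had 206 ± 12.6 TPM (SD, n = 3) without treatment, 287 ± 52.3 with CX3CL1, 216 ± 7.66 with IFN-γ and 269 ± 21.3 with both, and its CX3CL1 replicate 2 stood at 348 against 259 and 255 in the other CX3CL1 libraries. RABGGTA, the alpha subunit of the enzyme that attaches geranylgeranyl groups to Rab GTPases, was at 10.8, 11.8 and 11.7 TPM with IFN-γ and 11.0, 12.7 and 15.3 TPM with both. Its CX3CL1+IFN-γ minus IFN-γ difference of 0.16 was 0.05 without CX3CL1+IFN-γ replicate 3 and 0.27 without CX3CL1+IFN-γ replicate 1. ANKRD28, a regulatory subunit of protein phosphatase PP6, had 40.1 ± 3.10, 57.0 ± 12.6, 39.3 ± 3.23 and 54.3 ± 6.76 TPM in the 4 groups in the order above, and ZSWIM6, a SWIM zinc finger gene, had 8.06 ± 1.60, 11.4 ± 1.23, 8.68 ± 0.584 and 11.7 ± 1.63 TPM.

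Both an exopeptidase and an inhibitor of such enzymes were members. CPD, carboxypeptidase D, was at 34.2, 33.5 and 26.6 TPM without treatment, 42.6, 48.6 and 36.6 with CX3CL1, 23.7, 29.1 and 27.0 with IFN-γ, and 37.1, 35.9 and 37.7 with both. All its CX3CL1+IFN-γ libraries exceeded the IFN-γ ones, at a log2 difference of 0.46 that did not pass (limma adjusted p = 0.333). LXN, the carboxypeptidase inhibitor latexin, had 103 ± 0.433 TPM (SD, n = 3) without treatment, 143 ± 23.8 with CX3CL1, 98.7 ± 13.4 with IFN-γ and 126 ± 14.6 with both. Its exons overlap those of Gfm1 on the opposite strand, and GFM1 differed by 0.02 between CX3CL1 and No treatment and by 0.08 between CX3CL1+IFN-γ and IFN-γ.

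ANXA1, a phospholipid-binding annexin with anti-inflammatory activity (19:20373428-20390944, minus strand), differed from the other members. It was at 778, 816 and 670.5 TPM without treatment, 1072, 1025 and 991 with CX3CL1, 413, 568 and 446 with IFN-γ, and 412, 668 and 601 with both. The IFN-γ libraries lay below the untreated ones and overlapped those with both, and ANXA1 was the single member whose mean was lower with both treatments than without any, by 0.45 on the log2 scale. The CX3CL1+IFN-γ minus IFN-γ difference was 0.22 ± 0.17 (SE; limma adjusted p = 0.976). Leaving out 1 library moved it to 0.43 (CX3CL1+IFN-γ replicate 1), 0.08 (CX3CL1+IFN-γ replicate 2), 0.12 (IFN-γ replicate 1) and 0.35 (IFN-γ replicate 2).

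Of the last members, ODAPH and PDE6H are known from other tissues and PTGS2OS is annotated as a transcript without a protein. ODAPH, an enamel and odontogenesis phosphoprotein (5:91987475-91995320, plus strand), was at 4.77, 2.73 and 4.94 TPM without treatment, 6.31, 7.22 and 6.22 with CX3CL1, 5.15, 2.01 and 3.41 with IFN-γ, and 13.4, 5.73 and 9.20 with both. Its replicates ranked alike in both groups with IFN-γ, 1 highest and 2 lowest. The CX3CL1+IFN-γ minus IFN-γ difference was 1.20 ± 0.29 on the log2 scale, with a limma adjusted p of 0.187 without a block and 0.0241 with the replicate block, and 2.68-fold in mean TPM. It passed in 1 of the 6 fits that left out a compared library, without CX3CL1+IFN-γ replicate 2 (1.48, adjusted p = 0.049), and was 0.93 without CX3CL1+IFN-γ replicate 1 (adjusted p = 0.764) and 0.94 without IFN-γ replicate 2 (adjusted p = 0.825). PDE6H, the inhibitory gamma subunit of the cone phosphodiesterase, had 2.37 ± 0.827, 3.79 ± 0.434, 2.61 ± 1.07 and 3.96 ± 0.838 TPM (SD, n = 3) in the untreated, CX3CL1, IFN-γ and CX3CL1+IFN-γ groups, and its exons overlap those of Arhgdib on the opposite strand, whose own levels were 542 to 903 TPM. PTGS2OS, an opposite-strand transcript beside the prostaglandin synthase gene PTGS2, was at 2.36, 2.36 and 2.06 TPM without treatment, 2.97, 3.99 and 3.19 with CX3CL1, 1.51, 2.17 and 2.41 with IFN-γ, and 2.86, 2.98 and 2.88 with both.

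The comparison of CX3CL1+IFN-γ with CX3CL1 gives the difference made by IFN-γ in the presence of CX3CL1. The log2 difference had a median of -0.08 over the members, against 0.05 over all genes tested and -0.03 over the genes at or under the IFN-γ ceiling, and the members' median was 0.006 without CX3CL1 replicate 2. Of the 25 genes, 16 (64%) lay within 0.2 of 0, beside 65.9% of all genes tested and 77.4% of those at or under the ceiling. ANXA1 fell by 0.91 ± 0.17 (SE) on the log2 scale to 54.4% of its CX3CL1 mean TPM (limma adjusted p = 0.0079), and LANCL3 fell by 0.57 ± 0.13 to 63.4% (limma adjusted p = 0.0295). They were the 2 members called lower, beside 0.935% of the genes tested and 1.35% of those at or under the IFN-γ ceiling. All 111 genes called lower over the whole table lay at or under that ceiling. The LANCL3 call held without CX3CL1 replicate 1 and was lost without any other of the 6 compared libraries, with adjusted p of up to 0.0961 (without CX3CL1+IFN-γ replicate 1), while the ANXA1 call held in all 6 such fits.

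No member was called higher by limma in this comparison, beside 0.0608% of the genes at or under the ceiling. Over all genes tested the share called was 3.76%. All but 5 of those 447 genes lay above the ceiling, where the rule admits no member. At an unadjusted limma p under 0.05, 0 members were higher. The share of all genes at that threshold was not computed, so this count has no background to be read against. The largest positive differences were 0.40 for ODAPH, 0.23 for DHRS1 and 0.22 for SDC4, and none passed. The libraries with both treatments lay wholly below the CX3CL1 libraries in 4 members (ANXA1, LANCL3, SC5D and EVI2A), beside 5.48% of all genes tested and 7.89% of those at or under the ceiling. The CX3CL1 libraries were required by the rule to be high, which bears on this comparison. The interaction asks if CX3CL1 moved a gene by another amount in the presence of IFN-γ. Limma called it for 0 of the 25 genes and 0 of all genes tested. At an unadjusted limma p under 0.05 the counts were 0 and 273. For the members it has no test free of the rule. In bulk RNA, a change in the number of cells of one kind and a change in RNA per cell cannot be told apart.

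The 25 genes lay on 13 chromosomes. Of them, 15 had a tested neighbour within 50000 bases, and the 29 neighbours that were not members had a median log2 difference of 0.06 for CX3CL1 against No treatment and 0.08 for CX3CL1+IFN-γ against IFN-γ. The neighbours called higher in each comparison were PTGS2 and SLPI, the secretory leukocyte protease inhibitor. PTGS2 (1:150100031-150108227, plus strand) begins 68 bases from PTGS2OS on the opposite strand, and was at 135 ± 30.5 TPM (SD, n = 3) without treatment, 323 ± 39.6 with CX3CL1, 196 ± 3.77 with IFN-γ and 407 ± 54.6 with both. It was 1.27 higher on the log2 scale with CX3CL1 than without treatment and 1.04 higher with both than with IFN-γ (limma adjusted p = 0.0090), and 0.56 higher with IFN-γ than without treatment, where PTGS2OS had -0.12. SLPI lies 35152 bases from SDC4 on the same strand, and its IFN-γ minus No treatment difference was 1.91.

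DHRS1 and RABGGTA were the members nearest to each other, 16757 bases apart on the minus strand of chromosome 14. NOP9 begins 3 bases from DHRS1 on the opposite strand, and had 28.8 ± 2.41 TPM (SD, n = 3) without treatment, 30.1 ± 1.53 with CX3CL1, 33.3 ± 1.73 with IFN-γ and 32.6 ± 4.45 with both. Its differences were 0.07 for CX3CL1 against No treatment and -0.04 for CX3CL1+IFN-γ against IFN-γ, where those of DHRS1 were 0.63 and 0.77.

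**Figure D5:**
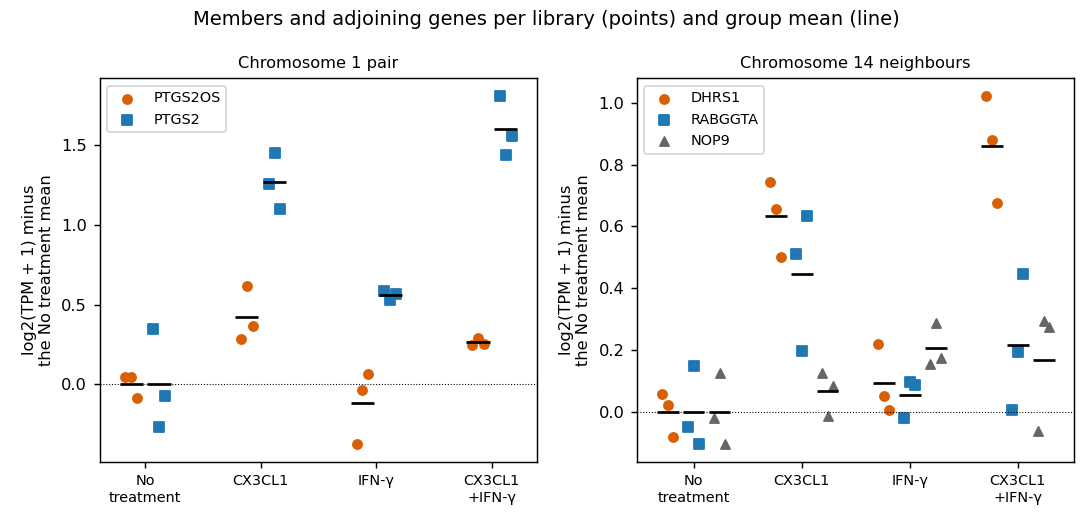
log2(TPM + 1) minus the gene's No treatment mean for PTGS2OS with PTGS2 (left) and for DHRS1, RABGGTA and NOP9 (right), in each library (points, replicates 1 to 3 from left to right) with the group mean (line). PTGS2 is above its No treatment mean with IFN-γ and PTGS2OS is not, and DHRS1 is high in the groups with CX3CL1 where NOP9 stays within 0.3 of its No treatment mean.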

How the data were processed

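CT26 cultures were measured by strand-specific mRNA sequencing, 3 libraries in each of 4 groups, taken from the titles. Per the study's methods and the submitters' processing notes, reads were aligned to mm10 and counted per gene with STAR 2.7.3a and tested by DESeq2 1.22.1. The deposited values are TPM, and how the authors made TPM from gene counts is not given in the sources used here. TPM sum to 1000000 per library and carry no depth, so precision rests on the spread between 3 replicates. Replicate pairs correlated at 0.984 to 0.996.

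The table held 23636 symbols, of which 6747 were at 0 in all libraries, 26 had become dates and 2 names were duplicated. The 11878 genes whose mean reached 0.2 TPM were fitted as log2(TPM + 1) from the deposited TPM with limma 3.58.1 (lmFit, eBayes with an intensity trend) in R 4.3.3, over all 12 libraries, with no block. P-values were adjusted by Benjamini-Hochberg per comparison and called under 0.05. The procedure was also tested on simulated data. An exact permutation test of 3 against 3 cannot go below 0.1. Tables and figures were made with Python 3.11.15, pandas 2.3.3 and matplotlib 3.10.9. Gene positions are from GENCODE vM21 (GRCm38) and promoter windows from RefSeq (GRCm38.p6).

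The members and the gene lists were chosen with earlier results of these data known. All 25 members are named, within a rule that took those called, those with the largest and smallest differences, those in a role list and those at the thresholds, and the few other genes named (PTGS2, SLPI, NOP9, GFM1, ARHGDIB and the genes left out by name) were chosen after their values were seen. The alternatives were another pseudocount, other filters and scalings, only the 6 libraries compared, no intensity trend, a replicate block and leaving out each library in turn.

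The labels give replicate numbers and do not say what a number shares. Libraries of the same number deviated together for CX3CL1+IFN-γ and IFN-γ (correlations 0.63, 0.64 and 0.65 over genes). They also did for CX3CL1+IFN-γ and CX3CL1 (0.35, 0.35 and 0.43). Blocked values are given beside the members' calls that they change, and not for the gene lists. For CX3CL1 and No treatment the correlations were 0.39, 0.01 and 0.30 in replicates 1, 2 and 3, so it is uncertain that the numbers pair these groups.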

Additional observations from a re-analysis of the deposited data

How the results depend on the processing

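Every member kept a positive CX3CL1+IFN-γ minus IFN-γ difference under all 14 alternatives, with LANCL3 called in each (1.01 to 1.37 on the log2 scale). The members called in that comparison numbered 3, and 1 (LANCL3) with only the 6 libraries compared, 5 with the replicate block, and 1 to 3 when a library was left out, with 1 without CX3CL1+IFN-γ replicate 1, IFN-γ replicate 2 or IFN-γ replicate 3. Their median difference of 0.42 was 0.46 with a pseudocount of 0.1, 0.43 after quantile normalization and 0.37 to 0.46 when a library was left out. Over all genes, 43 calls became 28 with no filter, 20 with the 6 libraries, 95 with the replicate block and 16 to 54 when a library was left out (16 without CX3CL1+IFN-γ replicate 3, 17 without CX3CL1+IFN-γ replicate 1 or IFN-γ replicate 2, 26 without IFN-γ replicate 1, 23 without IFN-γ replicate 3). Leaving out CX3CL1 replicate 2, chosen after seeing the data, gave 48 genes and 4 members called.

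For CX3CL1+IFN-γ against CX3CL1, the 2 members called became 1 (ANXA1) with no filter, with the 6 libraries and with a pseudocount of 0.1, and 1 to 2 when a library was left out. Their median of -0.08 was -0.14 after median-ratio scaling and -0.14 to 0.006 when a library was left out, turning positive (0.006) without CX3CL1 replicate 2. Over all genes, 558 calls became 344 with the 6 libraries, 1369 with the replicate block and 270 to 668 when a library was left out (270 without CX3CL1+IFN-γ replicate 3), and the share of calls that were higher was 80.1%, against 66.1% with median-ratio scaled TPM and 60.5% with quantile-normalized values. For CX3CL1 against No treatment, 232 calls became 455 with the replicate block and 152 to 268 when a library was left out (152 without No treatment replicate 3).

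The rule itself found 39 genes after median-ratio scaling, including all 25, 42 after quantile normalization, including 19, and 22 to 41 when a library was left out, with 38 without No treatment replicate 1, 40 when CX3CL1 replicate 1 was left out and 41 when CX3CL1 replicate 3 was. LANCL3, ODC1 and DHRS1 were found under all 14 alternatives and KANSL1L under 7. The cause of these changes was not tested. Where fewer samples or more genes entered a fit, that is part of the alternative. TPM hold no read depth, so counting error at low levels, as for PTPRQ or EVI2A, was not assessed.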

Other observations

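The 3 genes that met the same conditions but carry a chemokine, matrix protease or solute carrier name behaved in different ways. MMP3, the matrix metalloproteinase stromelysin 1, was very low, at 0.0989 ± 0.0296 TPM (SD, n = 3) without treatment, 0.573 ± 0.182 with CX3CL1, 0.0422 ± 0.0303 with IFN-γ and 0.502 ± 0.0563 with both, and it was called higher for CX3CL1+IFN-γ against IFN-γ (0.53 ± 0.10 on the log2(TPM + 1) scale, limma adjusted p = 0.047). SLC12A2, the sodium, potassium and chloride cotransporter, had 58.5 ± 4.04, 117 ± 34.2, 56.8 ± 11.2 and 87.1 ± 22.0 TPM in the untreated, CX3CL1, IFN-γ and CX3CL1+IFN-γ groups, and did not pass in that comparison (limma adjusted p = 0.825). CCL17, a ligand of CCR4, had 3.01 ± 1.44, 12.8 ± 6.62, 0.520 ± 0.609 and 2.40 ± 2.45 TPM in the same order. Its IFN-γ minus No treatment difference of -1.41 was lower than that of any of the 25 members, and its CX3CL1+IFN-γ minus IFN-γ difference was 1.00 ± 0.48 (limma adjusted p = 0.975).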
